A study of Mus musculus with 6 samples.

Results

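The genes of 3 cytokine groups were followed in enteric glial cell (EGC) cultures, namely the interleukin-12 family (Il12a, Il12b, Il23a, Il27 and Ebi3), interleukin-10 with its receptor chains (Il10, Il10ra and Il10rb), and interleukin-15 with its private receptor chain (Il15 and Il15ra). They were taken by gene symbol from the count files of the single libraries, and all 10 symbols were found, each on 1 of the 46603 gene rows. EGCs are the glia of the gut wall. The cultures were derived from C57BL/6J embryos at embryonic day 14.5, whose whole intestine was grown as neurospheres for 1 week before the cells were plated and expanded to confluence in medium with serum. There were 3 control libraries from untreated cells and 3 LPS libraries from cells given 100 ng/ml lipopolysaccharide (LPS), a bacterial cell wall component, for 12 h. No genotype differed between the groups. Neither the number of embryos behind a culture nor what separates the replicates was given in the labels, so the p-values measure the spread between these libraries, which may be technical. The study looked for EGC products that act on monocytes and macrophages, and the comparison of LPS with control asks which of these cytokine genes are part of such a response.

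The libraries held between 18775316 and 23664312 counts. Values are CPM, that is counts divided by the library size in units of 1000000 after scaling by TMM (trimmed mean of M-values), and a gene with 3 counts or fewer in a library was treated as at the detection floor, between 0.124 and 0.167 CPM. The cultures were mixed. Of 8 listed glial genes 7 were tested, 1 of them higher with LPS (Fabp7, log2 fold change 1.29, adjusted p = 0.0122), 1 lower (S100b, from 22.2 to 5.92 CPM, adjusted p = 0.0238) and 5 not called, among them Sox10 (between 73.8 and 101 CPM in the 6 libraries, adjusted p = 0.332). Of 8 mesenchymal and smooth muscle genes 1 was higher (Pdgfra), 4 of the contractile apparatus and its filaments were lower (Acta2, from 1157 to 303 CPM, Myh11, Tagln and Des) and 3 were not called, among them the collagen gene Col1a1 (between 5445 and 6269 CPM). Of the calls in these 3 lists, those of Tagln and Des held without any 1 library, whereas Adgre1, Fabp7, S100b, Pdgfra, Acta2 and Myh11 lost theirs without control replicate 1 or 2 and, except for Acta2, without LPS replicate 2. The part of these shifts in the results was not tested. All 12 listed macrophage genes passed the filter on low counts, and their summed level was 3889, 5013 and 11909 CPM for control replicates 1, 2 and 3, whereas it was 4040, 5248 and 19710 CPM for LPS replicates 1, 2 and 3. Each of these 12 genes was highest in replicate 3 of its group. Of the 12, 1 was higher with LPS (Adgre1), none was lower and 11 did not pass the test, whereas with the replicate number as a block 5 were higher and 3 lower. Over all genes tested 9.09% were called higher and 6.71% lower, and with the block 15.4% and 14.9%. Lists of other leukocytes stood at far lower summed levels than the macrophage genes, between 12.5 and 21.1 CPM in control and 7.41 and 10.2 CPM in LPS for dendritic cells, 3.18 and 6.24 against 1.45 and 4.82 CPM for T and NK cells, and 0.266 and 0.381 against 2.56 and 2.77 CPM for B cells. The dendritic cell genes Xcr1, Cd209a and Siglech and the T and NK cell genes Cd3e, Cd3g, Ncr1 and Prf1 had no count in any library, and only 2 of 8 dendritic cell genes and 1 of 8 T and NK cell genes passed the filter. Of the dendritic cell genes tested, Zbtb46 was called lower (10.5 CPM in control against 6.84 CPM in LPS, adjusted p = 0.0265), a call lost without any 1 of the libraries except LPS replicate 3, and Itgax was lower with the block only (adjusted p = 0.157, and 0.0107 with the block). The T and NK cell gene tested, Cd4, was not called in either fit. Among 5 B cell genes, Pax5 alone passed, through the LPS libraries alone, and was called higher (2.25 CPM in LPS against 0.0289 CPM in control, adjusted p = 0.00259). As these were bulk libraries, a smaller number of cells of a type and less RNA per cell cannot be told apart.

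Interleukin-12 family cytokines are secreted pairs of an alpha and a beta subunit. The beta subunit encoded by Il12b joins the product of Il12a in interleukin-12 and that of Il23a in interleukin-23, and the beta subunit encoded by Ebi3 joins the product of Il27 in interleukin-27 and that of Il12a in interleukin-35. Interleukin-12 drives interferon-gamma production by T and NK cells, interleukin-23 sustains interleukin-17-producing T cells, and interleukin-27 and interleukin-10 restrain inflammation, the latter through a receptor made of the Il10ra and Il10rb products. Interleukin-15 keeps NK cells and memory T cells alive, and it is displayed to them on the cell surface by the Il15ra product. Macrophages and dendritic cells exposed to bacterial products are well-known sources of all 3 groups.

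The 10 genes lie on 10 different chromosomes. Promoter sequences were available for 4 of the 10, namely Il12a, Il12b, Ebi3 and Il15ra, as RefSeq windows on GRCm38.p6 from 250 bases before to 50 bases after each start site. The 3 windows printed here belong to called genes in which one of the searched letter patterns was found. The patterns were chosen with these sequences in view, were searched on both strands, and a match is a description of letters, not of a bound site. They were a TATA pattern (TATANA), a tandem interferon regulatory factor pattern (GAAANNGAA), an AP-1 pattern (TGANTCA), a gamma-activated sequence (TTCNNNGAA) and the kappaB consensus. These were present in 24.7%, 8.56%, 7.81%, 8.30% and 8.46% of 32851 RefSeq promoter windows, respectively. Capitals mark TATA in the Il12b window (chr11:44399813-44400112, plus strand), kappaB in the Ebi3 window (chr17:55952373-55952672, plus strand) and the tandem pattern in the Il15ra window (chr2:11705462-11705761, plus strand).
Il12b: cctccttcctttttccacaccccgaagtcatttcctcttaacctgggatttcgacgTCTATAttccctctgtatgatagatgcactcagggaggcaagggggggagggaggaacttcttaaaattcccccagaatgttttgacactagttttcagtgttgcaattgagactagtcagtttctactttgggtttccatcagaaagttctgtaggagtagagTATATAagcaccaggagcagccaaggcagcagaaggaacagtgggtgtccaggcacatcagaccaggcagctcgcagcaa
Ebi3: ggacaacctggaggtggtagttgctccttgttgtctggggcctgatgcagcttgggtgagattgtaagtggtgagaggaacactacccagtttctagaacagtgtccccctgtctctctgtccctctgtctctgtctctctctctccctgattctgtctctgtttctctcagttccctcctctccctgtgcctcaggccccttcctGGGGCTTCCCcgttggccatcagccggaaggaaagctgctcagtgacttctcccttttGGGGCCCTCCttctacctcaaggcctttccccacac
Il15ra: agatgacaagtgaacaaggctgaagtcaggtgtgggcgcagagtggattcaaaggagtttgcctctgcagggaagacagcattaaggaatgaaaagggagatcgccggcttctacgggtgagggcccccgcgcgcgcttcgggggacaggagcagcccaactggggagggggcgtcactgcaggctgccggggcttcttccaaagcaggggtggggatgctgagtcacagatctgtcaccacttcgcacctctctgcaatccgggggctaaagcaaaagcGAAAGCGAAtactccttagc

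In the Il12b window the first bases of the TATA matches lay at -194 and -30 relative to the start site. The Ebi3 window held kappaB matches at -44 and 15. The Il15ra window held the tandem pattern at 31 and an AP-1 match at -30, which is not capitalised. A second Il15ra window, further upstream (chr2:11705043-11705342), held the tandem pattern at -149 and a TATA match at -236. Neither of the 2 Il12a windows held any of the 5 patterns.

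Of the 10 genes, 8 passed the filter on low counts and were tested, and 5 of these were higher with LPS (Il12b, Il27, Ebi3, Il10 and Il15ra), against 9.09% of all 15226 genes tested that were called higher. None of the 8 was called lower, against 6.71% of all genes, and none had an unadjusted p under 0.05 with a negative change. Il12b, Il27 and Il10 passed the filter through the LPS libraries alone, so their presence among the tested genes already required a difference. The median log2 fold change of the 8 was 2.24, against -0.02 over all genes tested. The same 5 genes had every LPS library above every control library, as did 19.3% of all genes tested, and none had every LPS library below every control library, as 19.4% did. Fitted with the replicate number as a block, 6 of the 8 were called higher, the sixth being Il10ra, against 15.4% of all genes higher and 14.9% lower in that fit.

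**Figure D1:**
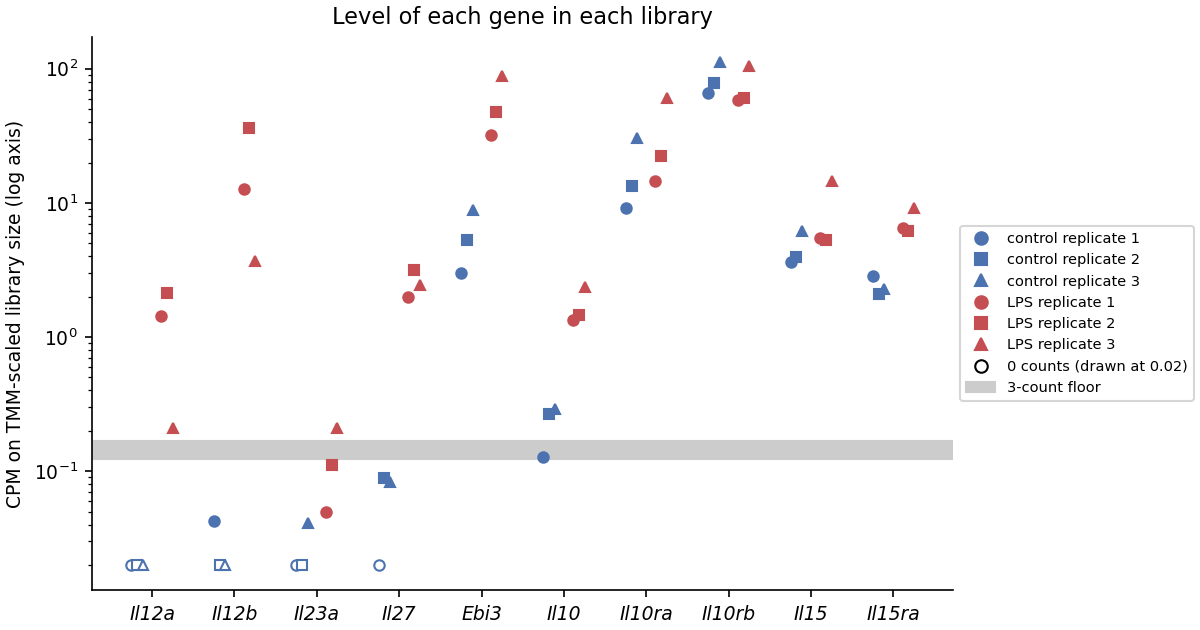
CPM of each of the 10 genes in each library on a log axis, with control in blue, LPS in red and the replicate number given by the shape of the point. Open points are libraries with 0 counts and the grey band is the range of the 3-count floor. Il12b, Il27, Ebi3, Il10 and Il15ra have all 3 LPS points above all 3 control points, while the points of Il10ra, Il10rb and Il15 overlap between groups. The untested Il12a and Il23a also have all LPS points above all control points, Il23a with at most 4 counts in a library.

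The first question was whether the subunits of interleukin-12 and interleukin-23 appeared with LPS. Il12b (ENSMUSG00000004296, chr11:44400063-44414033, plus strand, GENCODE M21 on GRCm38), the shared beta subunit, was practically silent in control and showed the steepest rise of the 8 tested genes. Its counts were 1, 0 and 0 across control replicates 1, 2 and 3, against 259, 645 and 70 in LPS replicates 1, 2 and 3. In CPM the LPS libraries stood at 12.8, 35.9 and 3.66. All 3 LPS libraries were above all controls, but LPS replicate 2 was 9.81 times LPS replicate 3. The LPS mean of 17.5 ± 16.6 CPM (SD, n = 3) was at least 136.5-fold higher than the mean control floor of 3 counts per library, and at least 64.3-fold higher without LPS replicate 2. The fitted log2 fold change, which depends on the prior count for a gene with controls at 0, was 9.76 (SE 1.44, adjusted p = 0.0116), and it ran from 8.70 without LPS replicate 2 to 11.51 without control replicate 1. With the replicate block the adjusted p was 0.000922. The call was lost without control replicate 1 (adjusted p = 0.0892) and without control replicate 2 (adjusted p = 0.0720).

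Il12a (ENSMUSG00000027776, chr3:68690644-68698547, plus strand), the alpha subunit of interleukin-12, had 0 counts in each control library. In LPS replicates 1, 2 and 3 it had 29, 38 and 4 counts, or 1.43, 2.12 and 0.209 CPM. The groups did not overlap, and as for Il12b the lowest LPS library was replicate 3. The mean of 1.25 ± 0.967 CPM (SD, n = 3) was at least 9.79-fold higher than the control floor, and at least 6.42-fold higher without LPS replicate 2. The gene failed the filter because only 2 libraries reached its minimum, and it was not among the 15226 genes tested. Fitted with no filter its log2 difference was 7.73 (SE 1.58) with adjusted p = 0.0520, and without LPS replicate 3, when it passed the filter, the adjusted p was 0.0120. It also passed without control replicate 1, 2 or 3, with adjusted p = 0.129, 0.143 and 0.0912.

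Il23a (ENSMUSG00000025383, chr10:128296139-128298752, minus strand), the alpha subunit of interleukin-23, was hardly detected. It had 0, 0 and 1 counts in the controls and 1, 2 and 4 counts in LPS replicates 1, 2 and 3. Only LPS replicate 3 exceeded 3 counts, so a change was not detectable at this depth and no fold is given. Fitted with no filter its adjusted p was 0.230.

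The order of the replicates set Il12a and Il12b apart from the macrophage genes in the LPS group. LPS replicate 3 held 0.118 times the mean of LPS replicates 1 and 2 for Il12a and 0.150 times for Il12b. The 12 macrophage genes summed were 4.24 times higher in LPS replicate 3 than in the mean of the other LPS libraries, and the leukocyte gene Ptprc 3.92 times. The part of these levels in the result was not tested.

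Next, the subunits of interleukin-27 were examined, and both were higher with LPS. Il27 (ENSMUSG00000044701, chr7:126589010-126594941, minus strand), the alpha subunit, had 0, 2 and 2 counts in control replicates 1, 2 and 3. It had 40, 57 and 47 counts in LPS replicates 1, 2 and 3, or 1.98, 3.18 and 2.46 CPM. The groups were far apart and the LPS libraries lay close together, unlike those of Il12b. The LPS mean of 2.54 ± 0.604 CPM (SD, n = 3) was at least 19.8-fold higher than the control floor, with a fitted log2 difference of 5.34 (SE 0.61 and adjusted p = 0.00506). Il27 was the only one of the 5 called genes that kept its call in each of the 6 fits that left out a library, with adjusted p between 0.00623 and 0.0392. Of its exon bases, 103 (10.1%) also belong to Apobr on the opposite strand, and the strand setting of the counting is not given in the sources used here. Apobr itself was at 27.6, 37.8 and 73.7 CPM in control and 28.1, 37.1 and 65.1 CPM in LPS (log2 fold change -0.10, adjusted p = 0.912).

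Ebi3 (ENSMUSG00000003206, chr17:55952640-55957022, plus strand), the beta subunit of interleukin-27, was present at rest and was the most abundant interleukin-12 family transcript per kilobase of exon in both groups. It stood at 3.01, 5.27 and 8.80 CPM across control replicates 1, 2 and 3, against 32.2, 47.9 and 87.8 CPM across LPS replicates 1, 2 and 3. The lowest LPS library was above the highest control, and in both groups replicate 3 was the highest. Within replicate numbers 1, 2 and 3 the LPS library was 10.7, 9.09 and 9.97 times its control. The group means were 5.69 ± 2.92 and 55.9 ± 28.7 CPM (SD, n = 3 each). The fit gave a log2 difference of 3.29 (SE 0.54) with adjusted p = 0.0157 (0.000175 with the replicate block). The call was lost without control replicate 1 (adjusted p = 0.0574), control replicate 2 (0.0882) or LPS replicate 2 (0.0572). An antisense gene, Gm16712, shares 270 of the exon bases (23.4%) and had 35 counts in all 6 libraries together.

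Levels of different genes were compared as CPM per kilobase of exon. In LPS replicates 1, 2 and 3 Ebi3 exceeded Il27 by a ratio of 14.4, 13.3 and 31.6 on this scale. Il12b exceeded Il12a by a ratio of 7.72, 14.7 and 15.1. The beta subunit was thus the more abundant of the pair in each LPS library for both cytokines. Ebi3 exceeded Il12a by 33.1, 33.3 and 618, and the third of these rests on the 4 counts of Il12a in LPS replicate 3. Il12b exceeded Il23a by 20.0 in LPS replicate 3, the single library in which both were above the floor, again with 4 counts in the denominator. These ratios are descriptions of transcripts and were not tested.

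**Figure D2:**
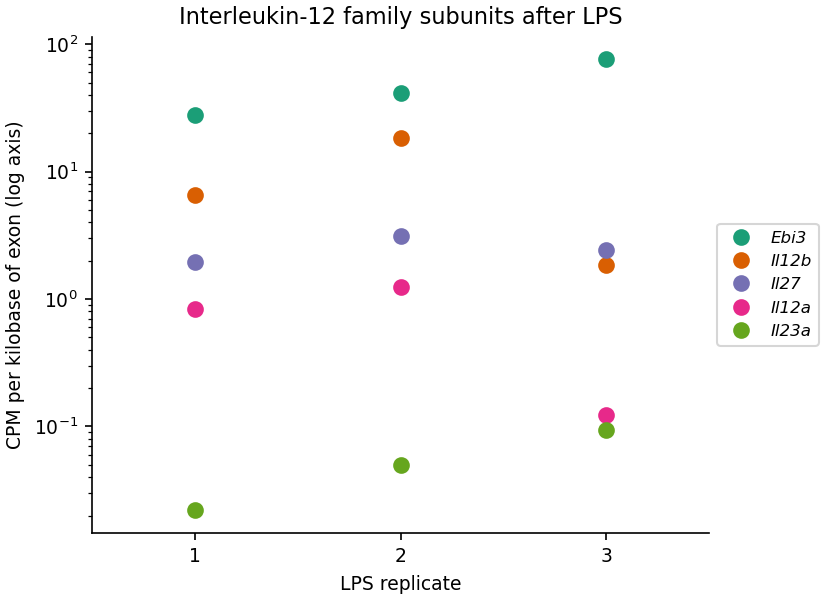
CPM per kilobase of exon, on a log axis, of the 5 interleukin-12 family subunit genes in LPS replicates 1, 2 and 3, with 1 point per gene and library. Ebi3 is the highest in each library, and Il12b is above Il27 in replicates 1 and 2 (6.51 and 18.3 against 1.94 and 3.11) and below it in replicate 3 (1.86 against 2.41).

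For interleukin-10, the question was whether the cytokine and its receptor chains moved alike. Il10 (ENSMUSG00000016529, chr1:131019845-131024974, plus strand) rose from a low level. It was at 0.127, 0.266 and 0.289 CPM in control replicates 1, 2 and 3, from 3, 6 and 7 counts, and at 1.33, 1.45 and 2.36 CPM in LPS replicates 1, 2 and 3, from 27, 26 and 45 counts. The 3 counts of control replicate 1 are at the detection floor. The groups did not overlap and replicate 3 was again the highest of each. The means were 0.227 ± 0.0876 and 1.71 ± 0.559 CPM (SD, n = 3 each), a 7.53-fold difference, with a fitted log2 difference of 2.88 (SE 0.42 and adjusted p = 0.0111). The call was lost without control replicate 2 (adjusted p = 0.0646).

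Il10ra (ENSMUSG00000032089, chr9:45253837-45269149, minus strand), the ligand-binding chain of the receptor, overlapped between groups. It was at 9.15, 13.3 and 30.4 CPM across control replicates 1, 2 and 3, against 14.5, 22.5 and 61.03 CPM across LPS replicates 1, 2 and 3. Replicate 3 was the highest of both groups, and control replicate 3 exceeded LPS replicates 1 and 2. Without a block the log2 fold change was 0.89 (SE 0.67, adjusted p = 0.416), and it ran from 0.06 without LPS replicate 3 to 1.56 without control replicate 3. Within replicate numbers 1, 2 and 3 the LPS library was 1.58, 1.69 and 2.01 times its control, and with the replicate block the log2 fold change was 0.82 with adjusted p = 0.00779. This was the only one of the 8 genes whose call changed with the block. Ptprc had the same pattern, with 47.8, 69.0 and 141 CPM in control and 69.8, 97.5 and 328 CPM in LPS (adjusted p = 0.402, and 0.0318 with the block).

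Il10rb (ENSMUSG00000022969, chr16:91406164-91425834, plus strand), the accessory chain that interleukin-10 shares with interleukin-22 and interferon-lambda receptors, was the most abundant of the 10 genes per kilobase of exon in control. It was at 65.4, 78.2 and 112 CPM across control replicates 1, 2 and 3, against 58.8, 60.6 and 105 CPM across LPS replicates 1, 2 and 3. The groups overlapped almost wholly, and each LPS library was slightly below the control of the same number (ratios 0.898, 0.775 and 0.931). The log2 fold change was -0.19 (SE 0.30, adjusted p = 0.711). Its sign turned without control replicate 3 (0.07, adjusted p = 0.889), so no direction is given. Per kilobase of exon, Il10rb exceeded Il10ra by ratios of 6.57, 5.41 and 3.40 in control and 3.73, 2.48 and 1.58 in LPS replicates 1, 2 and 3. The ratio was thus lower in LPS than in control at each number, although the ranges overlapped between groups.

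The 2 interleukin-15 genes differed in whether they passed the test. Il15ra (ENSMUSG00000023206, chr2:11705290-11734317, plus strand), which presents the cytokine, was at 2.84, 2.08 and 2.27 CPM across control replicates 1, 2 and 3, against 6.47, 6.13 and 9.21 CPM across LPS replicates 1, 2 and 3. The groups were clear of each other, and control replicate 3 was not the highest control, unlike for Il10, Il10ra and Ebi3. The means were 2.40 ± 0.394 and 7.27 ± 1.69 CPM (SD, n = 3 each), and the fitted log2 difference was 1.60 (SE 0.24) with adjusted p = 0.0118. The call was lost without control replicate 2 (adjusted p = 0.0668).

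Il15 (ENSMUSG00000031712, chr8:82331632-82403222, minus strand) was at 3.64, 3.94 and 6.16 CPM across control replicates 1, 2 and 3, against 5.49, 5.29 and 14.6 CPM across LPS replicates 1, 2 and 3. Control replicate 3 exceeded LPS replicates 1 and 2, so the groups overlapped. The log2 fold change was 0.88 (SE 0.47, adjusted p = 0.258), from 0.23 without LPS replicate 3 to 1.17 without control replicate 3, and it was 0.77 with the replicate block (adjusted p = 0.0544). None of its 17 alternatives called Il15. Whether Il15 and Il15ra differ in their response was not tested. Per kilobase of exon, the ratio of Il15ra to Il15 was 0.396, 0.269 and 0.188 in control and 0.600, 0.589 and 0.322 in LPS replicates 1, 2 and 3, with LPS above control at each number and overlap between the groups.

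**Figure D3:**
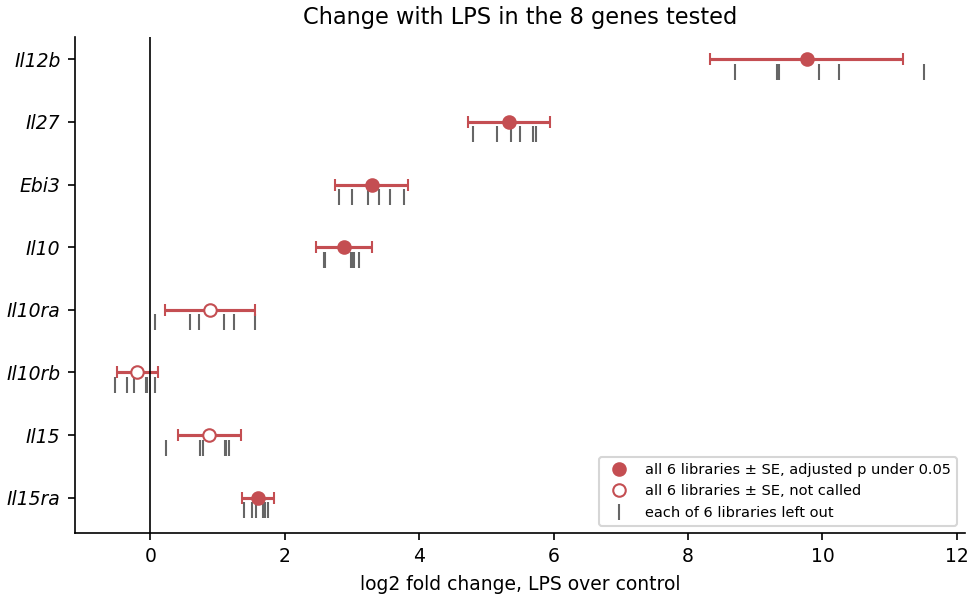
Log2 fold change of LPS over control in the 8 genes tested. Circles with bars are the estimate ± SE from all 6 libraries, filled where the adjusted p was under 0.05, and ticks below are the estimates with each library left out in turn. Il10rb is the only gene whose ticks fall on both sides of 0, from -0.52 to 0.07.

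The order of the 10 genes by level per kilobase of exon changed between groups. In control it ran from Il10rb (22.4 ± 6.39 CPM per kilobase, SD, n = 3) through Il10ra (5.03 ± 3.22), Ebi3 (4.93 ± 2.53), Il15 (2.03 ± 0.608) and Il15ra (0.539 ± 0.0887) to Il10 (0.174 ± 0.0669). Il12a, Il12b, Il23a and Il27 were at the floor in each control, as was Il10 in control replicate 1. Il10ra and Ebi3 did not differ beyond their spread, with Ebi3 the higher in control replicate 2 alone, whereas Ebi3 was above Il15 in each control library. In LPS the order was Ebi3 (48.5 ± 24.8), Il10rb (19.6 ± 6.83), Il10ra (9.34 ± 7.12), Il12b (8.88 ± 8.46), Il15 (3.73 ± 2.34), Il27 (2.49 ± 0.591), Il15ra (1.64 ± 0.380), Il10 (1.31 ± 0.427), Il12a (0.737 ± 0.568) and Il23a (0.0549 ± 0.0359). Of these neighbours, Il10rb was above Il10ra, Il27 above Il15ra and Il15ra above Il10 in each LPS library, whereas the order of Il10ra and Il12b, of Il12b and Il15, of Il15 and Il27, and of Il10 and Il12a changed between the libraries. Ebi3 was above Il10rb in each LPS library, with 27.9, 41.5 and 76.1 against 15.4, 15.9 and 27.5, whereas in control it was below Il10rb in each.

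Because replicate 3 of both groups held more macrophage transcripts, each gene was also set against the macrophage-list genes Ptprc and Csf1r, scalings chosen after the values had been seen and given without a test. Il10ra varied little against Ptprc, with 192, 193 and 216 CPM per 1000 CPM of Ptprc for control replicates 1, 2 and 3, against 207, 230 and 186 for LPS replicates 1, 2 and 3. Il15 also spanned the same range in both groups, with 76.3, 57.1 and 43.8 in control and 78.6, 54.3 and 44.3 in LPS. For both genes the groups overlapped, and LPS was not above control at each replicate number. Against Csf1r, the receptor gene of the macrophage growth factor, it was. Il10ra stood at 77.4, 76.5 and 55.1 CPM per 1000 CPM of Csf1r in control and 114, 140 and 72.3 in LPS replicates 1, 2 and 3, and Il15 at 30.8, 22.7 and 11.2 against 43.2, 32.9 and 17.2. The groups still overlapped, and whether a difference remained in these genes thus depended on the marker chosen.

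Ebi3 stayed apart when set against Ptprc, at 63.0, 76.4 and 62.6 per 1000 CPM of Ptprc in control and 461, 491 and 268 in LPS. Il10 did so too, at 2.66, 3.85 and 2.06 in control and 19.1, 14.9 and 7.18 in LPS. Il12b reached 183, 369 and 11.2 in LPS. In these 3 genes LPS replicate 3 was the lowest LPS library but above every control. Il15ra overlapped, with 59.4, 30.2 and 16.2 in control and 92.7, 62.9 and 28.1 in LPS. Il10rb went the other way, at 1370, 1134 and 799.6 in control and 841, 622 and 319 in LPS, lower in LPS at each replicate number. It was lower at each number against Csf1r too, at 553, 451 and 204 against 463, 377 and 124. Cd68, another macrophage-list gene, was itself lower with LPS, at 238, 323 and 689 CPM in control and 134, 163 and 407 CPM in LPS. Cd68 fell by more than Il10rb at each number, so the direction of Il10rb depended on the marker chosen. Ebi3 and Il10 stayed apart against Csf1r as well, but not against every macrophage-list gene. The mean of Fcgr1 rose from 30.3 to 193 CPM with LPS, and both Ebi3 and Il10 overlapped between groups when divided by it. For Adgre1 the mean rose from 287 to 1971 CPM, and Il10 overlapped again whereas Ebi3 did not. The separation of Ebi3 and of Il10 thus depended on the marker too. The part of the macrophage transcripts in the changes with LPS was not tested.

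**Figure D4:**
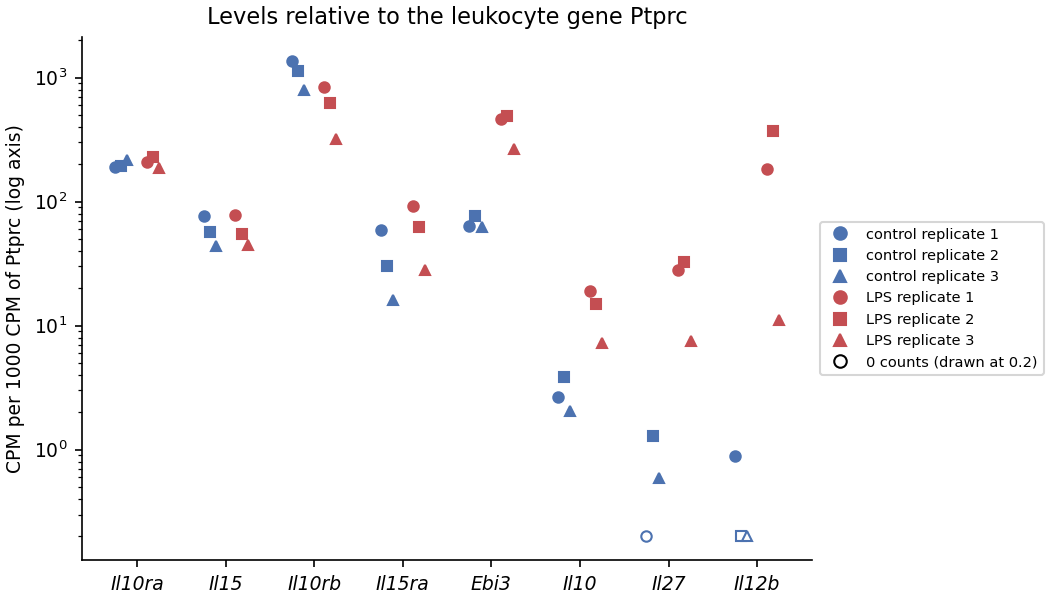
CPM per 1000 CPM of the leukocyte gene Ptprc, on a log axis, for the 8 genes tested in each library, with control in blue and LPS in red. Il10ra lies between 186 and 230 in all 6 libraries, while Ebi3, Il10, Il27 and Il12b keep all LPS points above all control points.

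The receptors and signal transducers of these cytokines were then considered, from a list of 16 genes of which 15 were tested. Of these, 6 were higher with LPS, 1 was lower and 8 did not pass the test, against 9.09% higher and 6.71% lower over all genes, and the median log2 fold change was 0.45. Il23r, one of the 6, passed the filter through the LPS libraries alone. Jak2, a kinase of the interleukin-12 and interleukin-23 receptors, rose from between 52.2 and 59.6 CPM to 397, 422 and 214 CPM (log2 fold change 2.65, SE 0.28, adjusted p = 0.00371). Il2rg, the common gamma chain through which interleukin-15 signals, stood at 2.88, 3.19 and 6.61 CPM in control and 29.6, 32.2 and 65.5 CPM in LPS (log2 fold change 3.32, SE 0.48, adjusted p = 0.0112). Both had all LPS libraries above all controls.

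The receptor chains of interleukin-12 and interleukin-23 moved in both directions. Il12rb1, shared by both receptors, went from 0.555 ± 0.0922 to 1.99 ± 0.522 CPM (mean ± SD, log2 difference 1.83, adjusted p = 0.0160). Il12rb2, the chain particular to the interleukin-12 receptor, went from 2.19 ± 0.324 to 0.627 ± 0.140 CPM (log2 fold change -1.79, adjusted p = 0.0122). Il23r, its counterpart in the interleukin-23 receptor, was at or below 3 counts in each control and at 1.48, 2.01 and 13.9 CPM in LPS, at least 45.2-fold higher than the control floor (adjusted p = 0.0277). Without LPS replicate 3 the bound for Il23r was 13.6-fold. Jak1, a kinase common to interleukin-10, interleukin-27 and interleukin-15 receptors, was modestly higher (log2 fold change 0.34, adjusted p = 0.0477). Stat3, the main transducer of interleukin-10, missed the threshold at 269 ± 21.8 against 341 ± 10.8 CPM (adjusted p = 0.0506, and 0.0229 with the block). With the block 9 of the 15 were higher and 1 lower, against 15.4% and 14.9% of all genes. Jak2 kept its call in each fit that left out 1 library, whereas Il12rb1, Il12rb2, Il23r, Il2rg and Jak1 lost theirs without control replicate 2, among other libraries, with adjusted p up to 0.172 for Jak1. Only 2 of the list were higher without control replicate 1 or without control replicate 2.

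Genes that interleukin-10 is known to induce in macrophages formed a list of 7, all tested, and 4 were higher with LPS, none lower, against 9.09% and 6.71% of all genes, with a median log2 fold change of 0.98. Socs3, a feedback inhibitor of cytokine receptors, was at 27.1, 25.6 and 31.4 CPM in control and 130, 136 and 192 CPM in LPS (log2 fold change 2.45, SE 0.18, adjusted p = 0.00136). Bcl3, a nuclear regulator of NF-kappaB, went from 15.3 ± 2.75 to 58.3 ± 7.65 CPM (SD, n = 3 each, adjusted p = 0.00227). Il1rn, the interleukin-1 receptor antagonist, was at 7.67, 8.72 and 14.6 CPM in control and 62.2, 57.6 and 211 CPM in LPS (3.41, SE 0.63, adjusted p = 0.0212). Nfil3, a leucine zipper repressor, had a log2 fold change of 0.98 (adjusted p = 0.0161). Il4ra, Sbno2 and Etv3 did not pass. Socs3 and Bcl3 kept their calls without any 1 library, whereas Nfil3 and Il1rn lost theirs without control replicate 1 or 2, which left 2 of the 7. Nfil3 also lost its call without LPS replicate 1 or 2, with adjusted p up to 0.0882 over the fits that left out a library. With the block 6 of the 7 were higher, against 15.4% of all genes. Several of these genes are also known to respond to LPS without interleukin-10.

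Most relatives of the 3 groups failed the filter on low counts. Of 9 other interleukin-10 family genes, 2 passed the filter and neither was called, whereas with the block 1 was higher and 1 lower, against 15.4% and 14.9% of all genes. Of 10 other genes of the common gamma chain cytokines, 4 were tested, with 1 higher and 1 lower, against 9.09% and 6.71% of all genes. With the block 2 were higher and 1 lower, against 15.4% and 14.9% of all genes. The gene added by the block was Il4ra (adjusted p = 0.545, and 0.00427 with the block). Il7, a lymphocyte survival factor, went from 1.15 ± 0.338 to 2.99 ± 0.501 CPM (mean ± SD, log2 difference 1.37, adjusted p = 0.0299), and its receptor gene Il7r from 15.6 ± 9.26 to 3.62 ± 0.536 CPM (log2 fold change -2.11, adjusted p = 0.0291). Both calls were lost without control replicate 1 or 2 and without LPS replicate 1 or 2, and that of Il7 also without control replicate 3, with adjusted p up to 0.132 for Il7 and 0.117 for Il7r.

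Lastly, the genes outside the 10 with the most similar pattern over the 6 libraries were listed for 1 cytokine of each group, by Pearson r of log2 CPM among genes whose higher group averaged 5 CPM or more. For Il12b these were Tcf25 (r = 0.999), Rac3 (0.999) and Lad1 (0.997). For Il10 they were Fpr2, Ccdc25 and Psmb5 (0.999 each), and for Il15 they were Slc31a1, Nol11 and Plagl2 (0.996 each). With 6 libraries in 2 groups and many genes searched, such values describe a shared profile and carry no test.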

How the data were processed

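Per the labels, poly(A) libraries from a stranded kit were sequenced for 3 control and 3 LPS cultures. Raw counts of reads per gene were deposited by the authors. The submitters' processing notes name cutadapt 1.15, Bowtie2 2.3.3.1, STAR 2.5.2b, SAMtools 1.5, featureCounts 1.5.3 and the build GRCm38 (mm10). Replicates were not pooled. The series-wide count table held the same values (0 differed).

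Genes were filtered with filterByExpr of edgeR (at least 10 counts, total at least 15), leaving 15226 of 46603. Libraries were scaled with TMM and compared with the edgeR quasi-likelihood test (edgeR 4.0.16, R 4.3.3), two-sided, Benjamini-Hochberg adjusted over all genes tested, with calls at 0.05. CPM was divided by the union of exons in GENCODE M21 for levels per kilobase. All 10 genes are named, and of the other lists the called genes, defining markers, uncalled genes given as contrast and the 3 most similar genes for Il12b, Il10 and Il15. Some list genes entered the tests and counts but are not reported here by themselves. The genes and lists were chosen with earlier results of these data known. The main fit was unpaired. Replicate numbers were treated as pairs in the block fit and in the ratios within a number, since the labels give them in both groups. Deviations from group means correlated at r = 0.513, 0.334 and 0.613 for numbers 1, 2 and 3. LPS replicate 2 correlated more with control replicate 1 (0.419), and control replicate 2 nearly as much with LPS replicate 1 (0.323). The pairing of numbers 1 and 2 is therefore uncertain. Alternatives were other scalings (RLE, upper quartile, library size), other filters, DESeq2 1.42.0, the edgeR exact test, limma-voom (limma 3.58.1), the block, each library left out, and both replicates 3 left out. Floors cover counting error only.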

Additional observations from a re-analysis of the deposited data

How the results depend on the processing

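The count of 5 genes called higher was 5 under RLE, upper-quartile and library-size scaling, without a filter, with DESeq2, the edgeR exact test, limma-voom and the series-wide table. It was 6 with the replicate block, which changed no other call among the 8 genes than that of Il10ra, and 6 without both replicates 3, when Il12a passed the filter and was called (adjusted p = 0.000969). It was 2 with at least 10 counts in every library, a filter that removes Il12b, Il27 and Il10. With each library left out it lay between 1 and 6: 1 without control replicate 2 (Il27), 3 without control replicate 1 (Il27, Il10 and Il15ra) and 4 without LPS replicate 2. Calls fell over all genes too in these 3 fits, to 379 of 15564, 470 of 15531 and 523 of 15546 higher, against 1384 of 15226 with all libraries. The cause was not tested. The count lower was 0 in every setting run. The change of Il10rb was -0.19 and turned to 0.0715 without control replicate 3 (from -0.519 to 0.0715 over the libraries left out). The median over all genes moved from -0.02 to -0.12 under upper-quartile scaling and to -0.18 under library-size scaling, where 1050 genes were higher and 1589 lower, and 986 and 2054, against 1384 and 1022. By level per kilobase, leaving out the length correction exchanged Ebi3 with Il10rb and Il27 with Il15ra in LPS. Depth limits Il12a, Il23a, Il27 and Il10, which had 71, 7, 144 and 98 counts in LPS in total.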
